A study of Mus musculus with 4 samples.

Results

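Cells that met a marker rule for lower dermis and fascia fibroblasts were described in 4 single-cell libraries of sorted mouse back skin dermis. They were chosen by detected transcripts. A cell was a member when at least 4 of 8 markers, Col5a3, Lpl, Adamts18, Itih5, Osr1, Gpc3, Mfap5 and Clec3b, had 1 or more UMIs (unique molecular identifiers, the counted transcripts). In addition, at most 1 of Tnmd, Thbs4, Ednrb and Kank4 was allowed a UMI, Cyp2f2 had to stay below 2 UMIs and Ptprc at 0. Of 13877 cells that passed quality limits, 1281 were members, namely 163, 333, 499 and 286 in the libraries described next. The comparison cells were the other 11491 kept cells with a UMI of the collagen gene Col1a1.

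The mice were on a C57BL/6J background and received tamoxifen on postnatal days 3 and 4, in all groups alike. A pair of libraries made with 10x chemistry version 2 came from α-SMACreERT2:RosaYFP mice aged 2 and 18 months. The other pair, made with version 3, came from α-SMACreERT2:RosaTDTomato mice aged 2 months (replicate 2) and 12 months. The Cre is driven by the smooth muscle actin promoter, so the reporter marks cells that used this promoter at tamoxifen and their descendants, and not all fibroblasts. Cells were sorted as reporter-positive or Cd26-positive and, in both cases, Itga9-positive or Cd200-positive, with 10000 cells from 2 pooled mice per library. Library values below stand in the order 2 months version 2, 18 months, 2 months version 3 and 12 months. The series' own design text counts 12 months with the young cohorts.

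The dermis is layered. Papillary fibroblasts lie under the epidermis, reticular fibroblasts build the thick collagen network below, and fascia and adventitial fibroblasts lie beneath it and around vessels and carry the surface proteins Ly6a (Sca-1), Cd34 and Pi16. Lower dermal fibroblasts are related to the fat layer and share genes of lipid handling with it, such as Lpl, the lipoprotein lipase. The hair follicle adds its own mesenchyme, the dermal papilla, which signals to the follicle epithelium, and the contractile dermal sheath around it.

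The 4 files held 17831300, 21083193, 77032628 and 55396394 UMIs, and 1729, 2506, 5555 and 4087 cells were kept. Members had a median of 7025, 7494, 12359 and 11939 UMIs, close to the 6656, 6908.5, 12217.5 and 12256.5 of the comparison cells. In version 2, 1906 barcodes were on file for 2 months and 2727 for 18 months, whereas the sample labels give 2604 and 3776 recovered cells and the design text gives 2707 and 1906 for its first and second sample. The count of 1906 thus belongs to the 2-month library by its file and to the second sample by the design text, and every direction given for the version 2 pair rests on the files as assigned. In version 3 the files had 7023 and 5474, against labelled counts of 6998 and 5415. The 2-month version 3 and 12-month libraries shared 84 barcodes, of which 11 were kept in both, and the version 2 pair shared 7, while no barcode of a member was shared within a pair. Sequences of the yellow reporter, eYFP, had UMIs in 84.0%, 81.7%, 82.6% and 78.7% of members, so also in the libraries labelled with the red reporter. Kept cells with UMIs of both immune genes Ptprc and Tyrobp are called immune cells here. Of these, 63.9%, 65.2%, 71.6% and 58.4% had eYFP UMIs. They numbered 83, 313, 672 and 675, with median depths of 10890, 7995, 9032 and 8424 UMIs. The mice are pooled, so a library is the only replicate, and p-values measure the spread between these libraries alone.

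The marker requirement and the limit on Tnmd, Thbs4, Ednrb and Kank4 both removed many cells. At least 4 of the 8 markers were found in 279, 720, 2533 and 1948 cells, and 34.8%, 42.2%, 77.3% and 77.8% of these carried UMIs of 2 or more of those 4 genes and were left out. The limit on Cyp2f2 alone would have removed 2, 72, 20 and 170 cells. Just inside the threshold, with exactly 4 markers, lay 69, 81, 230 and 117 members, and just outside, with 3 markers and all other criteria met, lay 119, 113, 341 and 195 cells. Gpc3, a cell surface proteoglycan, and Mfap5, a microfibril protein, were the most widely detected markers. Gpc3 had UMIs in 92.6%, 97.3%, 95.8% and 89.5% of members and Mfap5 in 89.6%, 92.5%, 88.4% and 97.2%. Clec3b, which encodes tetranectin, was at 25.8%, 51.7%, 22.0% and 28.3%, the lowest of the 8 in every library but the 18-month one, where Col5a3 was lower at 48.0%. These values describe the choice and are not results.

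The label held unevenly across libraries. Of 15 dermal papilla markers, 8 or more were detected in 16, 12, 200 and 34 members, or 9.82%, 3.60%, 40.1% and 11.9%. In the 2-month version 3 library the count of papilla markers per member had a second peak of 54 members at 12 markers, while the other libraries had small peaks of 8, 4 and 11 members at 11 markers. The summed level of the papilla list in members was 1873, 882, 6193 and 1798 CPM (a gene's UMIs in the summed cells, scaled to a common total). Wif1, a secreted Wnt inhibitor of the papilla, stood at 742, 367, 2810 and 748 CPM in all members and at 421, 198, 253 and 178 CPM once cells with 8 or more papilla markers were left out. The age counts and many of the age results below are therefore also given for the remaining 147, 321, 299 and 252 members, called members with few papilla markers. Dermal sheath genes were detected widely too. Acta2 had UMIs in 73.6%, 54.1%, 94.2% and 88.8% of members and 66.3%, 55.3%, 92.8% and 82.3% of comparison cells, but a lower summed level in members. For Col11a1 the shares were 69.9%, 61.9%, 81.4% and 78.7% against 50.0%, 48.4%, 74.1% and 70.5%. Tnmd, which the rule limits, was at 42.3%, 64.0%, 32.3% and 33.2% against 22.4%, 39.6%, 54.9% and 54.8%. Transcripts of other cell types were also present, and 32.5%, 32.7%, 63.1% and 51.0% of members had UMIs of 2 or more genes of other cell types. Summed levels were 1013, 500, 1257 and 896 CPM for keratinocyte genes, 1945, 1205, 438 and 290 CPM for macrophage and dendritic cell genes, and 609, 386, 190 and 192 CPM for pericyte genes. Adipoq, the adipocyte hormone, was at 0, 0, 0 and 0.27 CPM, and the endothelial gene Pecam1 at 2.28, 2.28, 6.33 and 5.76 CPM. The sort gene Dpp4, which encodes Cd26, was found in 7.98%, 8.11%, 18.4% and 15.7% of members and in 21.7%, 16.6%, 10.1% and 9.19% of immune cells, which the Cd26 gate may also have taken in. Cd200 was found in 75.5%, 59.8%, 72.3% and 75.9% of members, above the 54.2%, 35.5%, 24.7% and 17.5% of immune cells.

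**Figure D1:**
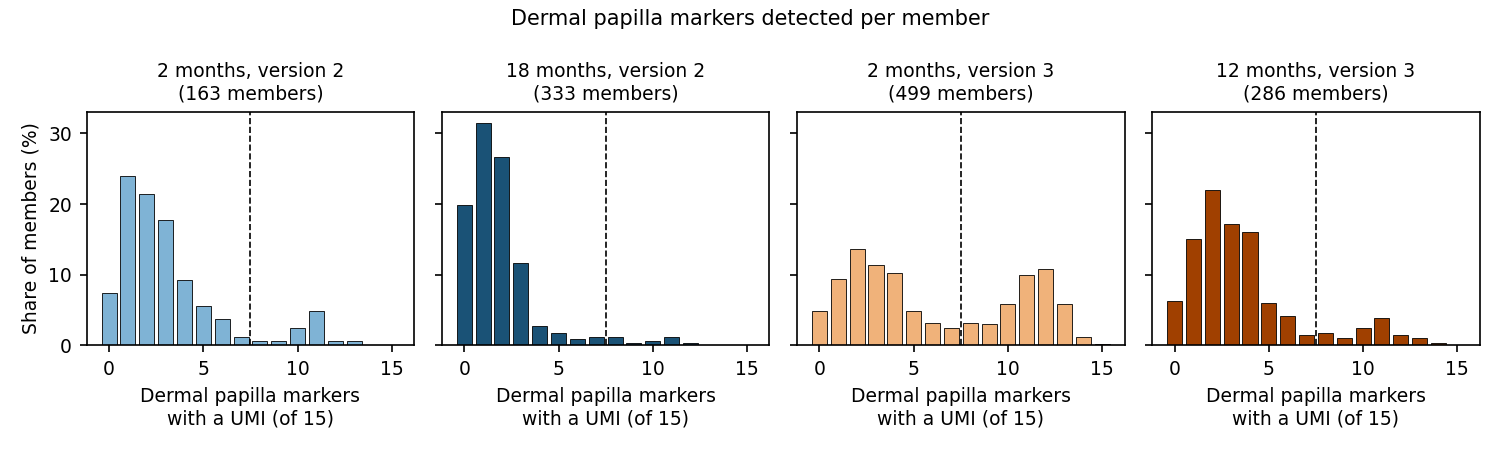
Share of members (%, vertical axis) by the number of 15 dermal papilla markers with a UMI (horizontal axis), 1 panel per library, with a dashed line at 8 markers. In the 2-month version 3 library 200 of 499 members lie right of the line, against 16, 12 and 34 in the others.

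Cells with more of the 8 markers had more Dcn, Ly6a and Cxcl12 and less Acta2 and Ndnf. Decorin (Dcn), the proteoglycan that coats collagen fibrils, stood at 1048, 4825, 672 and 3723 CPM in cells with exactly 4 markers and at 4695, 7167, 3421 and 4744 CPM in cells with 7. Ly6a stood at 449, 979, 220 and 781 CPM with 4 markers and at 1759, 2060, 1666 and 1646 CPM with 7. Cxcl12, the chemokine that binds Cxcr4, went from 71.5, 307, 27.2 and 134 CPM to 844, 1500, 409 and 922 CPM. Acta2, the smooth muscle actin of the dermal sheath, went the other way, from 1390, 1094, 2427 and 1727 CPM to 339, 194, 672 and 581 CPM. Ndnf, a papilla gene, went from 111, 87.9, 784 and 193 CPM to 0, 1.58, 12.5 and 2.24 CPM. All 5 genes moved the same way in every library, and the 2-month version 3 library began lowest for Dcn, Ly6a and Cxcl12 and highest for Acta2 and Ndnf. In that library 57.8% of members with 4 markers had 8 or more papilla markers, against 2.33% with 7.

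**Figure D2:**
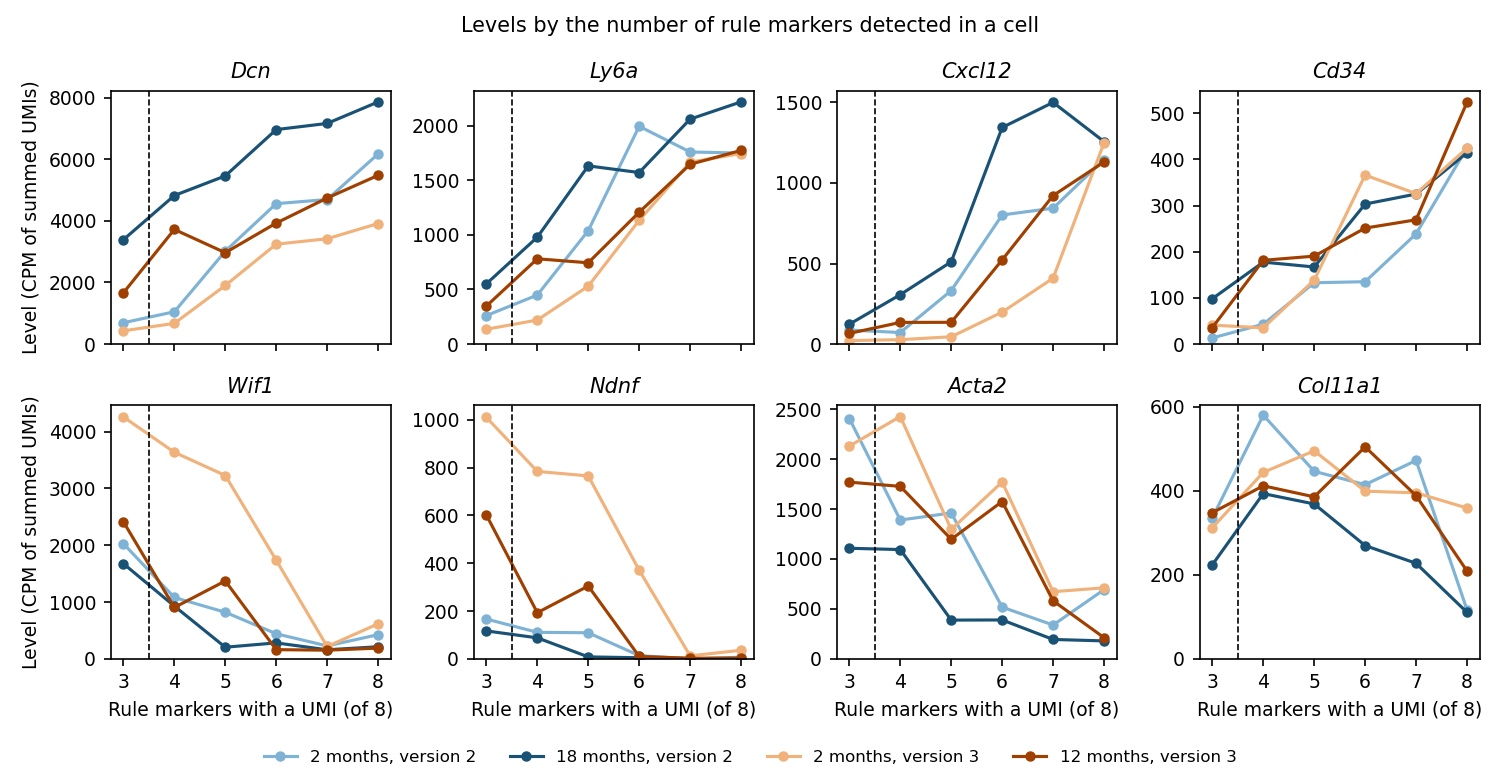
Levels (CPM of summed UMIs, vertical axes starting at 0) of 8 genes in cells with 3 to 8 of the rule's markers (horizontal axis), 1 line per library, with a dashed line between non-members (3) and members (4 and more). Dcn, Ly6a, Cxcl12 and Cd34 are higher and Wif1, Ndnf and Acta2 lower with 7 markers than with 4 in every library. Points at 8 markers rest on 14, 39, 11 and 16 cells.

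Against the other Col1a1 cells of the same library, members had higher levels of several secreted and surface proteins, among them Sema3g, Cxcl12, Igfbp6, Tnxb, Cd34 and Ly6a. This contrast is the one that defines members, so it is described without a test. Among 2923 genes outside the rule with a mean of at least 50 CPM in members, 25 were 2-fold or more higher in all 4 libraries (0.855%) and 22 were 2-fold or more lower (0.753%). Sema3g, a secreted semaphorin, had the highest smallest fold, with 53.1, 56.7, 44.2 and 47.2 CPM in members and 12.0, 8.47, 12.0 and 7.90 CPM in the others. Its folds were 4.41, 6.69, 3.69 and 5.97, with intervals for counting error only of 3.27 to 5.92, 5.26 to 8.52, 3.23 to 4.22 and 4.96 to 7.17 (exact conditional Poisson, 95%). No library of the other cells reached the lowest member value for this gene.

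Cxcl12 stood at 461, 947, 126 and 377 CPM in members and 43.8, 126, 39.9 and 103 CPM in others, so the fold was larger in the version 2 pair (10.5 and 7.53) than in version 3 (3.17 and 3.67). Igfbp6, which binds insulin-like growth factors, stood at 227, 655, 414 and 461 CPM against 33.6, 166, 72.5 and 160. Tnxb, a tenascin that links collagen fibrils, stood at 219, 331, 94.8 and 163 CPM against 22.7, 133, 16.9 and 74.1. Its ratio was 9.66 and 5.61 at 2 months and 2.49 and 2.20 at 18 and 12 months. Cd34, a sialomucin of stem and stromal cells, showed the same order, with ratios of 8.03 and 5.31 at 2 months and 2.89 and 2.13 at 18 and 12 months. For Ly6a the ratios were 7.72 and 3.13 against 2.72 and 2.26. In these 3 genes the comparison cells differed more between the ages than the members did: Cd34 in others went from 17.7 to 91.6 CPM and from 29.4 to 110 CPM, and in members from 142 to 264 and from 156 to 234 CPM. The rule leaves cells with 2 or more Cyp2f2 UMIs among the comparison cells only. These were 12 of 1123, 237 of 1882, 34 of 4898 and 312 of 3588 comparison cells, and their part in these differences was not tested.

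The other higher genes covered matrix crosslinking, proteolysis, complement and metabolism. Loxl1, which crosslinks elastin, stood at 152, 197, 104 and 135 CPM in members and 42.6, 84.9, 40.6 and 56.2 in others. Htra3, a secreted serine protease, stood at 178, 403, 94.5 and 230 CPM against 39.4, 103, 31.0 and 89.1. Plat, the tissue plasminogen activator, was 2.34-fold to 4.74-fold higher and C1s1, a complement protease, 2.06-fold to 3.26-fold higher. The group also included Gfpt2, Lbp, Ifi205, Thbd, Entpd2, Prss23, Medag, Cd248 and Tril. Of the 20 genes with the largest smallest ratio, 19 were also 2-fold or more higher in all libraries in members with few papilla markers. The genes most like the rule's markers in detection were Ly6a, Prss23, Dpep1, Htra3, Ly6c1, Pdpn, Igfbp6, Thy1, Lbp and C1s1, whose share of cells with a UMI was on average 30.0 to 35.2 percentage points higher in members, over 4 libraries.

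By list, 11 of 17 fascia and adventitial markers outside the rule and 9 of 16 reticular markers were higher in all 4 libraries, where 33.7% of all 10151 genes with at least 5 CPM were. Matrix proteases had 15 of 24 higher, basement membrane genes 8 of 14, sorting surface proteins 12 of 18, hedgehog pathway genes 7 of 10 and fibroblast transcription factors 14 of 28. Fibrillar collagens and their partners had 2 of 11 higher. Papillary dermis markers had 2 of 12 higher and 1 lower.

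On the lower side the background was 8.59% of genes lower in all 4 libraries, and all 7 arrector pili muscle genes, all 9 keratinocyte genes and 10 of 12 macrophage and dendritic cell genes were lower, with 8 of 13 dermal sheath genes. Tagln, a smooth muscle actin-binding protein, stood at 234, 165, 952 and 716 CPM in members and 675, 704, 2554 and 1934 CPM in others. Most of the other lower genes named by rule are known from the epidermis, such as Krt1, the keratin of differentiating epidermis, at 248, 82.9, 101 and 98.2 CPM against 9452, 1152, 521 and 427 CPM. The comparison cells include any kept cell with a single Col1a1 UMI, and with 10 or more Col1a1 UMIs and no Ptprc required of them the epidermal genes were no longer lower in every library. Dermal papilla genes were not among the consistently lower ones (1 of 14). With members with 8 or more papilla markers left out, 11 of 14 were lower, where 12.3% of all genes were. That filter uses these same genes, so the second count follows from the choice of cells and is not a result.

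Cells with 2 or more UMIs of Cyp2f2, a cytochrome P450 that the rule excludes, were the nearest neighbours. They numbered 12, 237, 34 and 312 with Col1a1. Of the 20 higher genes only 12, 10, 4 and 5 were higher in members than in these cells, with median log2 ratios of 0.54, 0.16, −1.43 and −0.49. Against cells with 2 or more of Tnmd, Thbs4, Ednrb and Kank4 all 20 genes were higher in each library, and against non-member cells with 8 or more papilla markers 18, 20, 19 and 19 were. All these groups are part of the comparison cells by which the 20 genes were picked. The high counts against the excluded and papilla-rich cells thus follow from that choice and are a description. Against the Cyp2f2 cells the 20 genes were not mostly higher in the 18-month library or the version 3 libraries. These differences were not tested.

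Members differed among themselves by Mfap5 and Clec3b. Both were detected in 40, 159, 102 and 79 members (24.5%, 47.7%, 20.4% and 27.6%), and only Mfap5 in 106, 149, 339 and 199. Pi16, a peptidase inhibitor of adventitial fibroblasts, stood at 442, 279, 897 and 816 CPM in members with both and at 10.8, 69.8, 7.32 and 65.6 CPM with Mfap5 alone. Dcn stood at 7218, 8527, 6956 and 8134 CPM with both and 1606, 4359, 583 and 2090 CPM with Mfap5 alone. Tnxb stood at 600, 523, 425 and 480 CPM against 64.9, 153, 18.5 and 31.2. In members with both, Dcn and Tnxb lay close together across the libraries, whereas Pi16 ranged from 279 to 897 CPM. Of members with both, 5.0%, 1.26%, 6.86% and 0% had 8 or more papilla markers, against 10.4%, 4.03%, 42.8% and 15.1% with Mfap5 alone, and the part of these cells in the contrast was not tested.

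Col11a1, Stmn2 and Cd200 were higher in the Mfap5-only members of every library. Col11a1 and Stmn2 are on the dermal sheath list. Over all members Stmn2 stood at 416, 294, 392 and 452 CPM, above the 163, 256, 364 and 348 CPM of the other Col1a1 cells. Col11a1 stood at 464, 288, 442 and 401 CPM against 330, 535, 1108 and 1017, so it was higher in members only in the 2-month version 2 library. Col11a1, a minor fibril collagen, stood at 95.0, 163, 103 and 177 CPM with both markers and at 646, 406, 554 and 505 CPM with Mfap5 alone. Stmn2 stood at 47.5, 185, 89.6 and 201 CPM against 625, 431, 525 and 575, and Cd200 at 154, 187, 90.4 and 129 CPM against 563, 422, 302 and 397. Median depths were 7332, 6878, 11885 and 11946 UMIs with both and 6771.5, 8261, 12817 and 11847 UMIs with Mfap5 alone. Among members with few papilla markers, the leading principal component of each library put Lum, Mmp2 and Tnxb on one side and Acta2, Tpm2 and eYFP on the other in all 4 libraries. It took up 4.16%, 3.53%, 6.35% and 4.35% of the variance. Across these 147, 321, 299 and 252 cells its score had a correlation with the log UMI count of −0.42, −0.65, −0.12 and −0.09, so in the version 2 libraries it also followed depth.

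Members made up 9.43% (95% Clopper-Pearson interval 8.09 to 10.9) and 13.3% (12.0 to 14.7) of kept cells at 2 and 18 months in version 2, and 8.98% (8.24 to 9.77) and 7.0% (6.23 to 7.82) at 2 and 12 months in version 3. The share was thus 1.41 times that at 2 months in the 18-month library and 0.779 times in the 12-month library. Intervals cover counting error only, each share comes from 1 library, and the shares, which the rule itself sets, were not tested. As a share of kept cells, the 18-month value was the higher one in every alternative run, with ratios from 1.09 to 1.93. Taken over members and the other Col1a1 cells only, the ratio was 1.19. With 3 markers needed, that base gave 21.59% at 2 months and 20.06% at 18 months in version 2, the opposite order. The 12-month direction did not hold: without cells with 8 or more papilla markers the shares were 5.38% and 6.17%. With each cell thinned to 4000 UMIs, which left out 33, 377, 299 and 247 shallower cells, the shares were 7.25%, 12.8%, 7.5% and 7.63%. How many cells each gate gave was not analysed here.

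**Figure D3:**
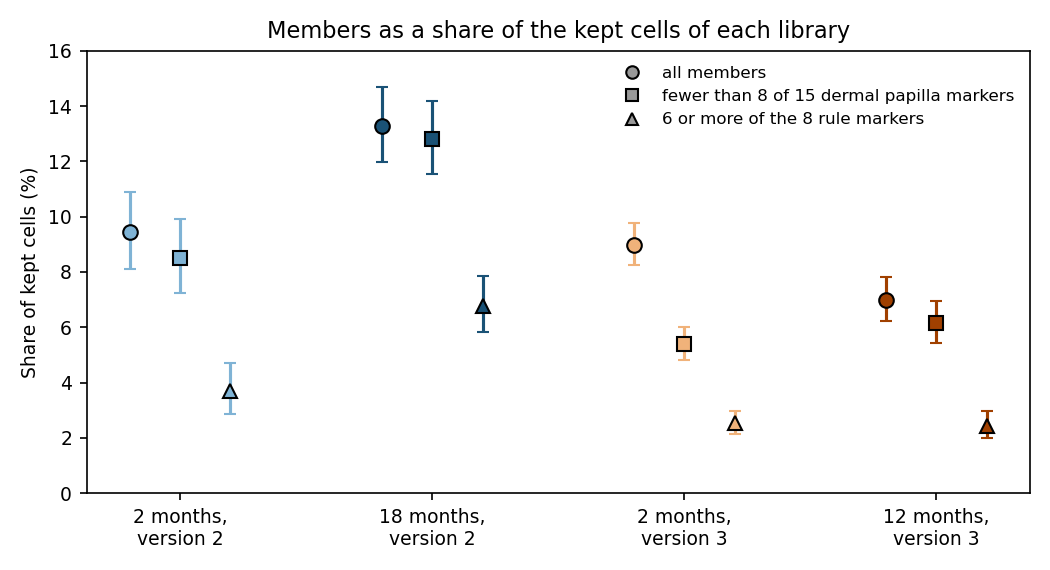
Members as a percentage of kept cells (vertical axis, from 0) in each library (horizontal axis) with 95% Clopper-Pearson intervals as bars, for all members (circles), members with fewer than 8 of 15 papilla markers (squares) and members with 6 or more rule markers (triangles). The 18-month library is highest for all 3 definitions, and the 2 version 3 libraries change order when papilla-rich members are left out.

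Older libraries (12 and 18 months) were compared with both 2-month libraries on UMIs summed over members, with chemistry as a covariate. In such sums more cells with a transcript and more transcripts per cell are not told apart. Of 11169 genes tested, 152 were called at an adjusted p under 0.05 by edgeR's quasi-likelihood test with Benjamini-Hochberg adjustment (1.36%), 72 higher (0.645%) and 80 lower (0.716%). Among members with few papilla markers 71 of 10828 were called (0.656%), 43 higher (0.397%) and 28 lower (0.259%), and 45 of them were also among the 152. Among members with 6 or more rule markers 127 of 9177 were called (1.38%). The fit has 1 residual degree of freedom, and without the chemistry term, or with 12 months counted as young, 0 genes were called. In all, 13 genes were called in each of the 12 analyses that kept the chemistry term and all libraries and counted 12 months as older. All 13 were higher in the older libraries. One of the 12 is the analysis without papilla-rich members. The 13 genes were singled out after their values were seen.

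Cdkn2a, which encodes the cell cycle inhibitors p16Ink4a and p19Arf that these 3′ counts cannot tell apart, had the largest difference of the 13. It stood at 12.9 and 71.5 CPM at 2 and 18 months and at 3.31 and 23.3 CPM at 2 and 12 months, in 14, 65, 21 and 38 members. Both older values lay above both 2-month values. The shares of members with a UMI were 8.59%, 19.5%, 4.21% and 13.3%, against 3.61%, 8.95%, 2.23% and 2.81% of immune cells. The log2 difference was 2.70 (SE 0.23, edgeR adjusted p = 0.0176), with 5.54-fold (3.37 to 9.72) and 7.05-fold (4.40 to 11.7) within the pairs. Over the 12 analyses the log2 difference ranged from 2.40 to 2.93. The other Col1a1 cells showed it too, at 5.21, 67.6, 3.21 and 14.7 CPM, and the difference between members and others was not called (log2 −0.10, edgeR adjusted p = 1.00). Of 17 senescence-associated genes tested, 4 rose and none fell, among them Cdkn2a, Cdkn1a (log2 1.00, edgeR adjusted p = 0.0305) and Cdkn1c (0.88, edgeR adjusted p = 0.0426). The list's median log2 difference was 0.15, against −0.01 over all genes, of which 0.645% were called higher. With few papilla markers 2 of the 4 were called, Cdkn2a among them.

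Proteolysis of the matrix formed the next group. Pamr1, a secreted protein with a peptidase-like domain, stood at 19.0 and 59.3 CPM and at 9.92 and 40.9 CPM (log2 1.93, SE 0.20). For this gene the older libraries lay above both 2-month libraries. Htra3 stood at 178 and 403 CPM and at 94.5 and 230 CPM (log2 1.28, SE 0.14), and both older levels lay above both 2-month levels. Ctsk, the collagen-degrading cathepsin K, stood at 488 and 821 CPM and at 292 and 819 CPM (log2 1.18, SE 0.20, edgeR adjusted p = 0.0444). Of 25 matrix proteases, 3 rose and none fell, with a median of 0.49. Over all genes 0.645% were called higher and the median was −0.01. Mmp2, a gelatinase and the third of them, had a log2 difference of 0.93 (edgeR adjusted p = 0.0357) and 0.70 with few papilla markers, where it was not called (edgeR adjusted p = 0.0727).

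Structural matrix genes rose in part. Lox, which crosslinks collagen, stood at 80.4 and 181 CPM and at 50.3 and 129 CPM (log2 1.32, edgeR adjusted p = 0.0176). Dcn stood at 3021 and 6317 CPM and at 1773 and 3837 CPM (log2 1.14, edgeR adjusted p = 0.0217). Cells with both Mfap5 and Clec3b made up 24.5% and 47.7% of members in version 2 and 20.4% and 27.6% in version 3. In them Dcn stood at 7218 and 8527 CPM and at 6956 and 8134 CPM. With Mfap5 alone it stood at 1606 and 4359 CPM and at 583 and 2090 CPM. The part of this mix in the Dcn difference was not tested. Of 10 small leucine-rich proteoglycans, Dcn, Lum and Omd rose and none fell. Of 16 elastic fibre genes Lox, Ltbp2 and Mfap4 rose, where 0.645% of all genes tested did. With few papilla markers none of these 6 passed: Dcn had 0.70 (edgeR adjusted p = 0.0727) and Lox 0.88 (edgeR adjusted p = 0.0532). Dcn and Lum also had smaller age differences in members than in the other Col1a1 cells (interaction log2 −1.14, edgeR adjusted p = 0.0349, for Dcn). Of the 12 analyses that kept the chemistry term and all libraries, 8 called this for Dcn and 11 for Lum. The rule leaves the Cyp2f2-positive cells, 12, 237, 34 and 312 in number, among the comparison cells only, and their part was not tested. Tnc, a tenascin of remodelling tissue, had a log2 difference of 2.62 (edgeR adjusted p = 0.0238) and 2.32 with few papilla markers (edgeR adjusted p = 0.0152), on 12, 21, 13 and 36 cells. None of 11 fibrillar collagen genes passed in either direction (median 0.19), nor any of 14 basement membrane genes (median −0.03).

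Of 19 chemokines and cytokines, 2 rose and 1 fell (median 0.23), and without papilla-rich members 1 rose and 1 fell (median −0.05). Over all genes tested in all members, 0.645% were called higher and 0.716% lower. Cxcl12 stood at 461 and 947 CPM and at 126 and 377 CPM (log2 1.36, SE 0.17, edgeR adjusted p = 0.0238), and 0.94 with few papilla markers. Its 2-month version 2 level exceeded its 12-month level, so the rise is within chemistries. Penk, the precursor of enkephalins, stood at 237 and 502 CPM and at 72.2 and 221 CPM (log2 1.40, SE 0.17). Cck, the precursor of cholecystokinin, stood at 31.9 and 84.8 CPM and at 47.6 and 118 CPM (log2 1.40, SE 0.14). Gas1, a hedgehog co-receptor, stood at 63.7 and 134 CPM and at 68.3 and 186 CPM (log2 1.33, SE 0.16), and was the only one of 10 hedgehog pathway genes to pass. Lgals3, the lectin galectin 3, stood at 585 and 1148 CPM and at 389 and 910 CPM (log2 1.15, SE 0.14). It was the one of the 13 genes whose age difference was called larger in members than in other cells (interaction log2 1.33, edgeR adjusted p = 0.00402), where it stood at 2530, 1439, 826 and 1206 CPM.

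Angptl4, a secreted inhibitor of lipoprotein lipase, stood at 59.9 and 141 CPM and at 114 and 221 CPM (log2 1.12, SE 0.15, edgeR adjusted p = 0.0265). Angptl4 was the only one of 23 adipogenic and lipid handling genes to pass, and their median was −0.10. Medag (1.39), Gpnmb (2.17), Abi3bp (1.23), Pltp (1.21) and the BMP antagonist Nbl1 (1.17) were also among the 15 genes with the smallest p on the higher side. Gpnmb and Nbl1 also passed with few papilla markers, at 1.85 and 1.18, whereas Medag had 0.94 (edgeR adjusted p = 0.0532), Pltp 0.80 and Abi3bp 0.81.

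**Figure D4:**
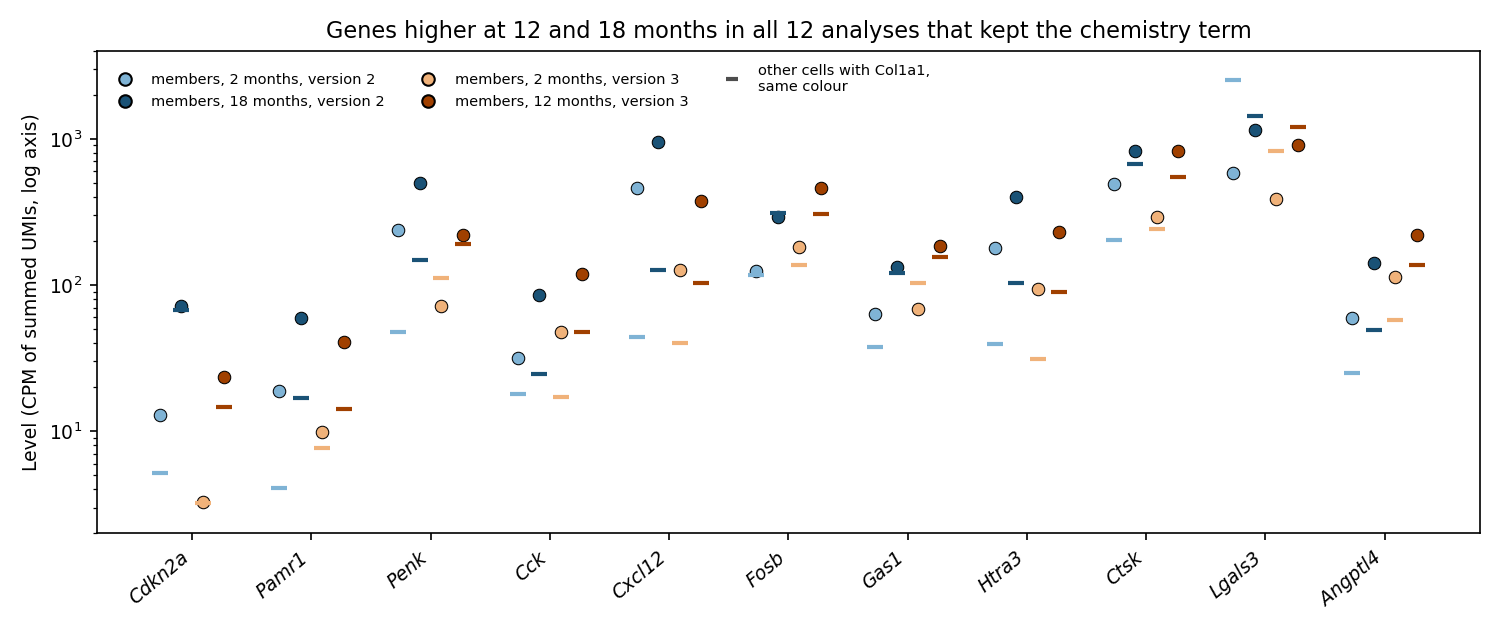
Levels (CPM of summed UMIs, log axis) of 11 of 13 genes, in members (circles) and in other Col1a1 cells (bars of the same colour), by library. The 13 genes were called in all 12 analyses that kept the chemistry term and all libraries and counted 12 months as older. Within each chemistry the older library is the higher one for all 11 genes in members, as for Cdkn2a at 71.5 against 12.9 and 23.3 against 3.31 CPM.

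Immediate early genes, which cells switch on within minutes of a stimulus and which also respond to tissue dissociation, lay higher in the older libraries. All 25 tested had a log2 difference above 0, with a median of 0.66 against −0.01 over all genes. Of the 25, 4 passed, namely Fosb, Klf2, Socs3 and Dusp1, where 0.645% of all genes tested were called higher. Without papilla-rich members 9 of 25 passed (median 0.79), where 0.397% of all genes did on the higher side. The upstream sequences of these 4 genes are shown because their promoters are known to answer stimulus-dependent factors. Each is the 250 bases before the start of the gene in RefSeq (GRCm38.p6), 5′ to 3′ on the gene's strand. Capitals mark TGACG, the core of the cyclic AMP response element, in Fosb, Klf2 and Dusp1, and TTCNNNGAA, the pattern bound by Stat proteins, in Socs3, both searched on both strands.
Fosb: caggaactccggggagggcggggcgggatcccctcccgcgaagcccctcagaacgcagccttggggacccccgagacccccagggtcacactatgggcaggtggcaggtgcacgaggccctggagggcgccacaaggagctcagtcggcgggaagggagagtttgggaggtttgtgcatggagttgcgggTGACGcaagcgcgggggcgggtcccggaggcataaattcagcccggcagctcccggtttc
Klf2: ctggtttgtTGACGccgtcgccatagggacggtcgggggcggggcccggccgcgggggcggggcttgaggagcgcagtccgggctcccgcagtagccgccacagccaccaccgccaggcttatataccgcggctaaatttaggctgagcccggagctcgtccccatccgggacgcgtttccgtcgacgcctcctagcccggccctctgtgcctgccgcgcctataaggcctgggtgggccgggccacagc
Dusp1: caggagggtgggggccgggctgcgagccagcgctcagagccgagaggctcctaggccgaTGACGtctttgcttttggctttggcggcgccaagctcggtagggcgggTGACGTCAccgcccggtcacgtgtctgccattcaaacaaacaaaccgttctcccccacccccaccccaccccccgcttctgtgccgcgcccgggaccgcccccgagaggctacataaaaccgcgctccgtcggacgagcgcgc
Socs3: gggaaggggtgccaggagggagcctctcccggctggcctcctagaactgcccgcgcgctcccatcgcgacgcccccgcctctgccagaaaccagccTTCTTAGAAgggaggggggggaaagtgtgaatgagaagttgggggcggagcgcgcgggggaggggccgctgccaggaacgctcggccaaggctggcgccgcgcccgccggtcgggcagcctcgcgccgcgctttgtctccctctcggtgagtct

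The Fosb window (chr7:19310046-19310295, minus strand) held 1 TGACG match, 60 bases before the start, and the Klf2 window (chr8:72318812-72319061, plus strand) 1 match, 241 bases before it. The Dusp1 window (chr17:26508473-26508722, minus strand) held 3 matches, 191, 143 and 140 bases before the start, of which the last overlap on opposite strands. The Socs3 window (chr11:117969367-117969616, minus strand) held 1 TTCNNNGAA match, 154 bases before the start, and no TGACG. Of 32817 such windows in the table, 17.7% held TGACG and 7.01% held TTCNNNGAA, so a match is common and is a description only.

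Fosb, a partner in the AP-1 transcription factor, stood at 124 and 292 CPM and at 181 and 460 CPM (log2 1.34, SE 0.14, edgeR adjusted p = 0.0176). It was detected in 27.6%, 52.0%, 47.7% and 76.6% of members and in 66.3%, 67.1%, 69.3% and 65.9% of immune cells. Klf2, a zinc finger factor, stood at 38.7 and 129 CPM and at 205 and 416 CPM (log2 1.34, edgeR adjusted p = 0.0332), and its level was higher in version 3 at both ages than in version 2 at either. Socs3, the feedback inhibitor of cytokine signalling, stood at 72.1 and 187 CPM and at 195 and 346 CPM (log2 1.11, edgeR adjusted p = 0.0380). Dusp1, a phosphatase that switches off MAP kinases, stood at 366 and 691 CPM and at 555 and 914 CPM (log2 0.86, edgeR adjusted p = 0.0398). Without papilla-rich members Klf2 was not called (1.06, edgeR adjusted p = 0.132), and the other 3 were. The other Col1a1 cells had Fosb at 118, 309, 136 and 307 CPM, and no immediate early gene had an age difference called as unlike that of other cells. Summed over the list, members had 4321, 7512, 13006 and 16228 CPM, and heat shock genes, which dissociation can also raise, had 6849, 6944, 30060 and 19434 CPM. None of 17 heat shock genes passed (median −0.20), and the part of cell handling in these differences was not tested.

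Of the 80 genes lower in the older libraries, 7 are on the papilla list. Over all genes tested, 0.716% were called lower. All 15 papilla markers lay below 0 (median −1.42) and 7 passed, while with few papilla markers the median was −0.12. These 15 genes, Ndnf and Crabp1 among them, set which members were left out, so their values in the rest are a description. Members with 8 or more papilla markers made up 9.82% and 40.1% of members at 2 months and 3.60% and 11.9% at 18 and 12 months, and the papilla list's summed level moved with them, as given above. Edn3, the endothelin that acts on melanocytes, stood at 72.1 and 19.4 CPM and at 173 and 36.5 CPM (log2 −2.06, SE 0.16, edgeR adjusted p = 0.0176). In members with few papilla markers it stood at 13.9, 5.97, 5.22 and 2.87 CPM and was not called (edgeR adjusted p = 0.541). Ndnf stood at 67.5 and 22.4 CPM and at 618 and 152 CPM (log2 −1.82), and with few papilla markers its difference was 0.27. Crabp1, a retinoic acid binding protein, went from −1.68 to 0.59 and Chodl from −1.56 to 0.20 when those members were left out. Ptprz1 (−2.19), Frzb (−1.69), Snap91 (−2.42), Scube1 (−2.35), Lypd1 (−1.95), Col23a1 (−1.52) and Prss12 (−1.28) also fell over all members, and none of these 7 passed with few papilla markers, where 4 of them were too rare to be tested.

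**Figure D5:**
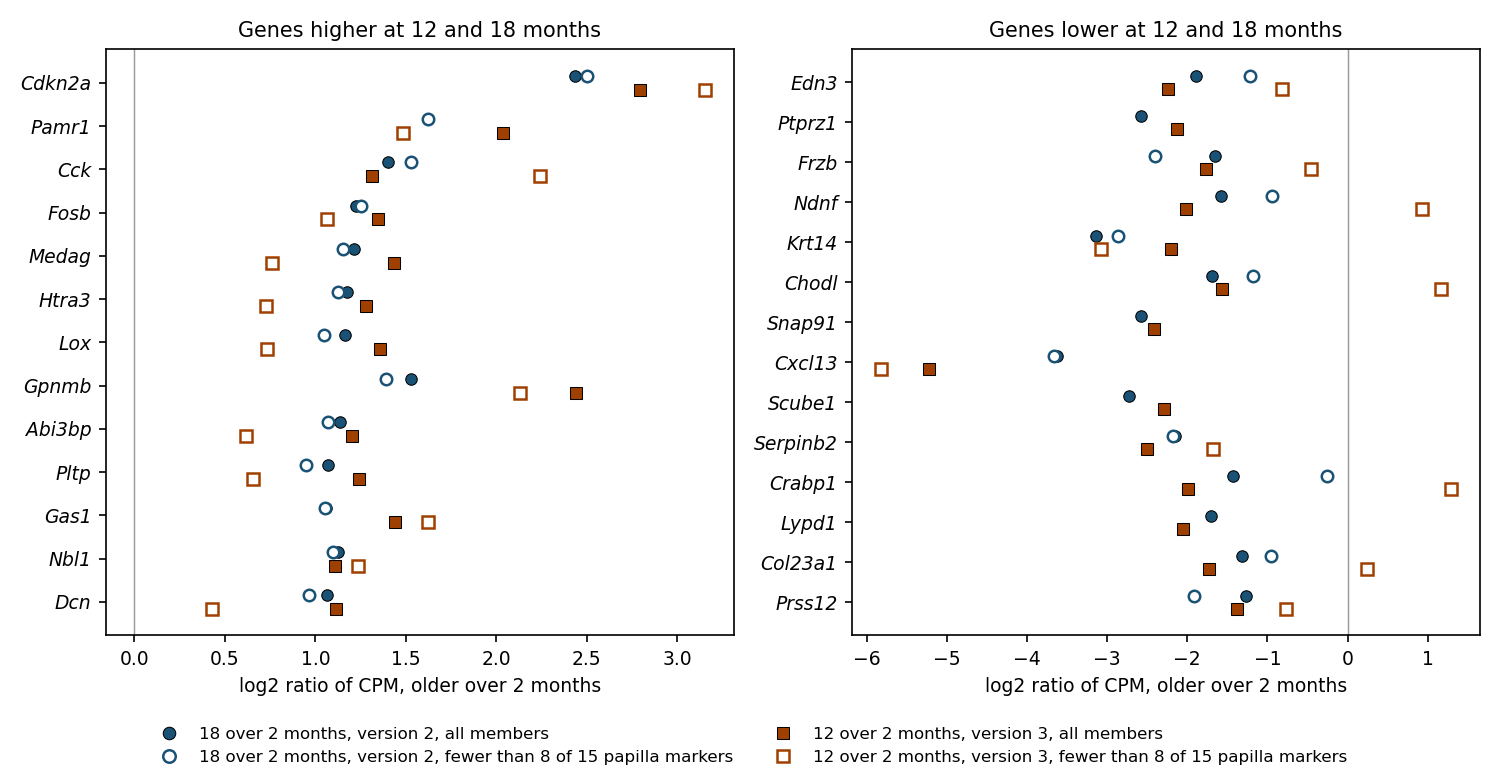
Log2 ratio of CPM, older over 2 months (horizontal axes, with a line at 0), for 13 higher and 14 lower genes among the 15 with the smallest p in each direction, for 18 months (circles, version 2) and 12 months (squares, version 3), in all members (filled) and in members with fewer than 8 of 15 papilla markers (open). Higher genes stay right of 0 in both, whereas open squares of Ndnf, Chodl, Crabp1 and Col23a1 lie on the other side of 0, and 4 genes have no open symbols because they were too rare to be tested.

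Signalling genes on the lower side followed the same split. In the Wnt pathway, 5 of 25 genes fell: Wnt5a (log2 −1.09), a ligand, Rspo2 (−2.29), which enhances Wnt signals, the secreted inhibitors Sfrp1 (−1.43) and Wif1 (−1.42), and Nkd2 (−1.01), an intracellular inhibitor. The receptor Fzd1 (0.91) and the inhibitor Dkk2 (1.11) rose. Over all genes tested, 0.716% were called lower and 0.645% higher. Among BMP and TGF-beta genes, the ligand Bmp4 (−1.37), the activin subunit Inhba (−0.997) and the decoy receptor Bambi (−1.11) fell and the activin subunit Inhbb rose (1.65). Fgf7 (−1.33) and its receptor Fgfr2 (−1.18) fell, as did Pappa2 (−2.68) and Pappa (−1.20), proteases that free insulin-like growth factors from their binding proteins. Among members with few papilla markers, 21 Wnt genes could be tested, Rspo2 not among them. No Wnt, BMP, FGF or IGF gene on these lists was called lower there, and Fzd1 (0.92) and Inhbb (1.96) were called higher. Wif1, Bmp4, Inhba and Fgf7 are among the 15 markers that chose those members, so for them this is a description. In that set Bmp4 stood at 33.1 and 17.1 CPM and at 18.4 and 23.9 CPM, so its pairs went in opposite directions. With 6 or more rule markers and without papilla-rich members, 2 of 15 Wnt genes were called lower and 1 higher. There 1 of 24 BMP and TGF-beta genes and 1 of 9 IGF genes were called lower and none higher.

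Some lower genes did not depend on papilla-rich members. Ifi27l2a, an interferon-induced gene, stood at 237 and 42.6 CPM and at 122 and 52.7 CPM (log2 −1.75, edgeR adjusted p = 0.0398). Leaving out papilla-rich members gave −2.20 (edgeR adjusted p = 0.00402). It was the only one of 20 interferon and MHC class I genes to pass, and their median was −0.12. Immune cells had it in 74.7%, 49.2%, 89.3% and 68.9% of cells and members in 36.2%, 17.1%, 32.7% and 16.4%. C3, the central complement protein, missed the threshold over all members (−1.44, edgeR adjusted p = 0.0524) and passed with few papilla markers (−1.85, edgeR adjusted p = 0.00938). Cxcl13, a B cell chemokine, stood at 11.4 and 0.761 CPM and at 25.5 and 0.549 CPM, on only 5, 2, 22 and 2 cells (log2 −4.80, edgeR adjusted p = 0.0176). Krt14 (−2.51) and Serpinb2 (−2.32) rested on single cells: 1 cell held 78.1% of the Krt14 UMIs of the 2-month version 3 members and 62.1% of their Serpinb2 UMIs came from 1 cell.

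Markers of some other cell types also lay lower in the older libraries. Over all genes outside the rule and not sex-linked, 5740 of 11150 lay below 0, and 0.716% of all tested genes were called lower. Of the few endothelial and melanocyte genes tested, 2 of 3 and 2 of 2 lay above 0, and none passed. Without members with UMIs of 2 or more genes of other cell types, 248 genes were called for age. Arrector pili muscle genes were below 0 in 7 of 7 (3 passed, median −3.52), with summed levels of 797, 376, 1385 and 430 CPM. Keratinocyte genes were below 0 in 9 of 9 (2 passed), with 1013, 500, 1257 and 896 CPM, and macrophage and dendritic cell genes in 11 of 12 (none passed), with 1945, 1205, 438 and 290 CPM. Without papilla-rich members 2 of 7, 3 of 9 and 1 of 12 of these passed, all lower. With 6 or more rule markers 1 of 3, 5 of 7 and 8 of 10 of those tested passed, all lower. Of the fascia and adventitial markers outside the rule, 2 of 18 rose and none fell (median 0.42), where 0.645% of all genes tested rose. Without papilla-rich members none of 17 rose and 1 fell (median 0.07), and with 6 or more rule markers likewise none of 17 rose and 1 fell (median −0.05). Of the reticular markers 4 of 17 rose and none fell (median 0.00), and without papilla-rich members 2 of 17 rose and none fell (median 0.04). None of 28 fibroblast transcription factors and none of 21 metallothionein and oxidative stress genes passed.

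The age difference was tested against that in the other Col1a1 cells of the same libraries. Of 14026 genes, 197 were called (1.40%) by edgeR's quasi-likelihood test with Benjamini-Hochberg adjustment, 45 with a higher difference in members (0.321%) and 152 with a lower one (1.08%). The rule holds members at 0 Ptprc UMIs, while 6.14%, 15.1%, 14.4% and 18.0% of comparison cells had Ptprc. Of 14 macrophage and dendritic cell genes in this test, 7 were among the 152. The comparison cells also hold the Cyp2f2-positive cells, and the part of both in these calls was not tested. Mmp3, a stromelysin that degrades matrix, stood at 35.7 and 58.6 CPM and at 23.3 and 59.0 CPM in members, and at 16.7 and 176 CPM and at 5.73 and 54.5 CPM in others (interaction log2 −2.16). Flrt3, an adhesion protein, stood at 23.5 and 5.71 CPM and at 20.6 and 13.7 CPM in members while it stood at 45.1 and 112 CPM and at 29.5 and 80.2 CPM in others (−2.42). Both are among the 6 genes called in all 12 analyses that kept the chemistry term and all libraries and counted 12 months as older. The others were Cxcl13 (−6.12), 1500015O10Rik (−2.99), Chchd10 (2.70) and Mlana (5.00). Mlana is a melanocyte gene and was found in 5, 13, 8 and 7 members, and in the other cells it stood at 124, 8.66, 10.8 and 0.819 CPM. Chchd10, a mitochondrial protein, stood at 21.2 and 19.8 CPM and at 11.4 and 117 CPM in members, so only the 12-month library was high. Of the 13 genes called higher for age in all 12 of those analyses, 12 were not called in this comparison.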

How the data were processed

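The 4 libraries are droplet 3′ transcript counts of single sorted cells. The deposited matrices hold whole-number UMI counts per gene and barcode that the authors made, and the submitters' processing notes name Cell Ranger 2.0.1, Seurat 2.1.0 and STAR, with the builds mm10 and GRCm38.p5. The version 3 matrix headers name software version 3.0.1. The settings of cell calling are not given in the sources used here. Each file lists 27999 genes with an added eYFP entry.

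Kept cells had 500 or more genes, 1000 or more UMIs and less than 10% of UMIs from mitochondrial genes. The members and the gene lists were chosen with earlier results of these data known. Members' counts were summed per library and expressed as CPM, with a prior count of 0.5 in log2 ratios. The age test and the interaction test were two-sided quasi-likelihood tests of edgeR 4.0.16 under R 4.3.3, with TMM factors, the tool's low-count filter, a chemistry term and Benjamini-Hochberg adjustment at 0.05, leaving 1 residual degree of freedom. The SE is the log2 difference divided by the square root of F. The procedure was tested on simulated data. Exact intervals came from scipy 1.17.1 (Python 3.11.15). Doublets were scored with Scrublet in scanpy 1.11.5. Its own threshold marked 7, 18, 111 and 2 cells, too few in some libraries to be relied on, so doublets were kept and removal of the top 3% of scores was an alternative.

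Named genes were, against the other cells, the 20 and 15 with the most consistent ratio in each direction among those with at least 50 CPM. For age they were the 15 each way with the smallest p and list members that passed or came nearest, and for the interaction the 8 each way with the smallest p. Sex-linked and mitochondrial genes were left out. The tiers by marker number and the alternatives without papilla-rich members were added after the data were seen. Alternatives covered size factors, DESeq2 1.42.0, the low-count filter, the chemistry term, the rule's criteria and leaving out each library. Some items are not reported here.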

Additional observations from a re-analysis of the deposited data

Results flagged for a closer look

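The age difference in members was unlike that in the other Col1a1 cells of the same libraries for 197 genes by the interaction test of edgeR's quasi-likelihood method. On the higher side the smallest p-values belonged to Mlana (log2 5.00), Klk1 (3.79), Chchd10 (2.70), Cldn5 (5.94), 8430408G22Rik (5.68), Tmem252 (3.81), Gsta1 (3.20) and Rbp7 (5.63). Most of these rested on few members: Klk1 had UMIs in 0, 0, 24 and 4 of them, Cldn5 in 0, 0, 3 and 2, Rbp7 in 0, 0, 3 and 2, 8430408G22Rik in 0, 1, 4 and 2, and Tmem252 in 3, 10, 6 and 3. In the 12-month library 1 cell held 87.8% of the Cldn5 UMIs and 68.2% of the Klk1 UMIs. On the lower side stood Cxcl13 (−6.12), Mmp3 (−2.16), Krt5 (−2.53), H2-DMa (−2.42), Aldh1a1 (−2.66), Flrt3 (−2.42), Cd83 (−2.84) and Krt14 (−2.29). H2-DMa and Cd83 are immune genes, found in 97.6% and 73.5% of immune cells of the 2-month version 2 library and in 4.91% and 3.68% of members. Aldh1a1, an enzyme of retinoic acid synthesis, stood at 14.4 and 31.6 CPM and at 13.4 and 12.1 CPM in members, and at 4.10 and 61.9 CPM and at 2.43 and 14.3 CPM in others.

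The share of members was 1.41 times that at 2 months in the 18-month library and 0.779 times in the 12-month library. The directions were opposite, and the difference between the pairs was not tested.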

How the results depend on the processing

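No paired analysis was possible by replicate number because the labels give such a number to only 1 of the 2-month samples, whereas the chemistry term of the age test already compares the older with the 2-month library within each chemistry. The alternatives with 6 or more rule markers, without papilla-rich members, and with both were chosen after the data were seen. The cause of the changes below was not tested. The share ratio of the 18-month pair (1.41) was 1.09 with 3 markers, 1.85 with 5, 1.83 with 6, 1.93 with 6 and without papilla-rich members, and 1.76 with thinned cells. That of the 12-month pair (0.779) was 1.10 without the Cyp2f2 criterion, 1.15 without papilla-rich members, 1.07 with 6 markers and without them, 1.02 with thinned cells, 0.980 with no limit on Tnmd, Thbs4, Ednrb and Kank4, and 0.964 with 6 markers.

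Genes 2-fold higher in members (25) numbered 10 with 3 markers, 45 with 5, 69 with 6, 41 without the Cyp2f2 criterion, 132 with no limit on the 4 genes, 10 against cells with 10 or more Col1a1 UMIs and no Ptprc, 43 without papilla-rich members, 90 with 6 markers and without them, 49 with thinned cells, and 24 to 41 with 1 library left out. Genes 2-fold lower (22) numbered 35 with no limit on the 4 genes, 14 against the stricter comparison cells and 18 to 30 with 1 library left out. With no limit on the 4 genes the log2 ratio nearest 0 turned to −0.33 for Sema3g, −0.17 for Gfpt2, −0.73 for Igfbp6, −0.13 for Lbp, −0.86 for Htra3, −2.17 for Ifi205, −0.50 for Thbd, −0.73 for Plat, −0.61 for Loxl1, −0.46 for Ly6a, −0.82 for Entpd2, −2.06 for Tnxb, −0.69 for Medag, −1.95 for Cd34, −0.0176 for Cd248, −0.00867 for Tril, −0.10 for C1s1 and 1.86 for Tagln. Against the stricter comparison cells it turned to 1.04 for Perp, 1.30 for Calm4, 1.90 for Ly6d, 1.76 for Dmkn, 0.84 for Krt1, 0.87 for Lgals7, 0.75 for Sfn, 2.00 for Sbsn, 2.18 for Krt77, 2.21 for Krtdap, 2.25 for Fam25c, 1.64 for Krt10 and 1.68 for Des, and without the Cyp2f2 criterion to 0.59 for Des.

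Genes called for age (152) numbered 809 with no low-count filter, 0 without the chemistry term or with 12 months as young, 0 to 16 with 1 library left out and hence no chemistry term (16 without the 2-month version 2 library), 598 with 3 markers, 260 with 5, 269 without the Cyp2f2 criterion, 336 without the top doublet scores, 248 without members with 2 or more genes of other cell types, 71 without papilla-rich members and 101 with 6 markers and without them. Without papilla-rich members the log2 difference turned to 0.27 for Ndnf, 0.20 for Chodl, 0.59 for Crabp1, 0.30 for Nkd2 and 0.82 for Pappa. With 6 markers it was −0.0672 for Mfap4, and without papilla-rich members as well −0.26 for Mfap4, −0.0771 for Lum and −0.17 for Ccl7. With 1 library left out it ranged from −3.78 to 0.33 for Ndnf, −3.71 to 0.0601 for Lypd1, −2.78 to 0.27 for Prss12, −2.32 to 0.0528 for Nkd2, −1.95 to 0.0481 for Inhba and −2.05 to 0.0231 for Pappa. All 66 named age genes kept their direction with other size factors and with DESeq2.

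Genes called for the interaction (197) numbered 35 by DESeq2, 0 without the chemistry term, 46 with 12 months as young, 0 with 1 library left out, 105 with 3 markers, 47 without members with genes of other cell types and 297 with 6 markers. In the 18-month pair alone the interaction was −0.56 for Klk1, −0.37 for Cldn5, −0.11 for 8430408G22Rik, −0.22 for Tmem252 and −1.14 for Rbp7. With 5 markers it was −4.37 for Cldn5, −0.68 for 8430408G22Rik and −4.00 for Rbp7, with 12 months as young −0.00501 for Rbp7, and without members with genes of other cell types 1.42 for Krt14. With 1 library left out it ranged from −6.87 to 10.84 for Klk1, −6.26 to 11.18 for Cldn5, −0.62 to 9.40 for 8430408G22Rik and −6.68 to 10.35 for Rbp7.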

Other observations

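Members in which neither Mfap5 nor Clec3b was detected numbered 15, 12, 50 and 6. Rgs5, a pericyte gene, stood at 1800, 741, 255 and 905 CPM in them, and 88.0% of those in the 2-month version 3 library had 8 or more papilla markers. Gpx3, a secreted glutathione peroxidase, stood at 1274, 426, 1490 and 244 CPM in members with both markers, so it was lower in the older library of each chemistry, and over all members its age difference was −1.09 and not called (edgeR adjusted p = 0.0700). In members with 6 or more rule markers it was −2.19 and called (edgeR adjusted p = 0.00293).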
